A study of Arabidopsis thaliana with 3 samples.

Results

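Efficiently spliced introns at deeply read junctions of Arabidopsis thaliana leaf transcripts were examined: introns that almost every read counted at their junction showed as removed. They were chosen from the deposited table of splicing events as retained introns of nuclear genes, at the second exon junction or later, with at least 1000 reads in each of 3 libraries and a mean retained level under 1%. The rule found 2176 introns in 813 genes, which is 62.3% of the 3493 later introns that met the same read minimum, out of 62849 nuclear events in 14457 genes. The level of an intron is its retained reads in percent of all reads counted at its junction. The other 1317 deep later introns (728 genes), with a mean level of 1% or more, are called the comparison introns here, and 147 of them had a mean level of 10% or more.

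All 3 libraries belong to 1 group: RNA of pooled first true leaves from untreated plants of the reference ecotype Col-0, grown in a growth chamber. The labels name no mutation, transgene or agent, and whether the pools were grown apart is not stated. A p-value over libraries therefore measures the spread between these 3 samples alone, and that spread may be technical. The study set out, by its title, to compare splicing of duplicated genes. The table lists an event only where every library has at least 1 alternative read, so introns that were never read as retained are outside it: 79 of the 1123 deep later junctions with a listed shifted splice site had no listed retained intron.

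An intron is removed by the spliceosome, which recognises a donor site at its 5′ end, usually opening with GT, and an acceptor site at its 3′ end, usually closing with AG. Plant introns are short and rich in T and A, and retention of an intron is the commonest form of alternative splicing in plants. A retained intron inside a coding region usually brings a stop codon into the reading frame, and such transcripts may stay in the nucleus or be degraded. Reads inside an intron can come from transcripts still being spliced as well as from finished ones, and counts of this kind do not separate them.

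An example with many reads is given by the 5 later introns of RCA, the activase that keeps Rubisco, the carbon-fixing enzyme, in its active state. RCA lies on the minus strand of chromosome 2 (RefSeq annotation of TAIR10.1, as for all coordinates here), and all 5 introns lie in its coding region. Introns 2 to 5 are efficiently spliced and intron 6 is not. Each is printed 5′ to 3′, with the first 6 bases (donor side) and the last 3 bases (acceptor side) in capitals.
RCA intron 2, chr2:16572409-16572499: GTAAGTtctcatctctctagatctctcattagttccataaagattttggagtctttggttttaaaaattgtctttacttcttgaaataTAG
RCA intron 3, chr2:16572204-16572302: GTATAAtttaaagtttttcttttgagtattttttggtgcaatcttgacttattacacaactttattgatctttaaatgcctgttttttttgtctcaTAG
RCA intron 4, chr2:16572027-16572117: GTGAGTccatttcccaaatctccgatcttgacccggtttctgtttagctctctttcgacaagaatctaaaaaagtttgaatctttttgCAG
RCA intron 5, chr2:16571473-16571553: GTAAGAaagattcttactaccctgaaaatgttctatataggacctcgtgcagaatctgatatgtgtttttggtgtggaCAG
RCA intron 6, chr2:16571067-16571190: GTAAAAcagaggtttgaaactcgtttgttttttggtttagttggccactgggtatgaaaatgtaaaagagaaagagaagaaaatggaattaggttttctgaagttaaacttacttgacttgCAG

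Intron 2 of RCA was retained in 0.0398%, 0.0109% and 0.0275% of junction reads in replicates 1, 2 and 3, from 47, 12 and 64 retained reads. Intron 3 was retained in 0.0957%, 0.0325% and 0.0750%, and intron 4 in 0.193%, 0.0521% and 0.147%. Intron 5 had 0.300%, 0.0690% and 0.205%, so in each library the level was higher at every step from intron 2 on. Mean junction reads were also higher at each step, with 153859, 162183, 173974 and 198133 at introns 2 to 5. Intron 1, which the rule leaves out as a first intron, was retained in 0.352%, 0.182% and 0.245%, above introns 2 to 5 in each library. Replicate 2 gave the lowest value for each of these 4 introns. Intron 6, the last of the gene, was retained in 14.6%, 15.0% and 16.7% of junction reads, and RefSeq annotates it as retained in another RCA transcript. For intron 6 replicate 2 was not the lowest library.

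Splice-site scores of the RCA introns did not follow that order. A site score here is the log2 odds of the site's bases under the frequencies of all 133345 annotated introns, against the base composition of introns. The donor score was 6.02 for intron 2, 7.62 for intron 3, 6.99 for intron 4, 7.48 for intron 5 and 7.44 for intron 6. The acceptor score was 5.66 for intron 2, the least retained, and 9.58 for intron 6, the most retained.

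The lowest mean level of all 2176 belonged to intron 3 of CSD2 (AT2G28190), a copper and zinc superoxide dismutase of the chloroplast. It had 1, 1 and 2 retained reads among 20915, 17886 and 36419 in replicates 1, 2 and 3, a mean of 0.00529%. With so few retained reads counting error is wide: the exact Clopper-Pearson 95% interval in replicate 1 ran to 0.0266%. The next in order was intron 8 of SHM1 (AT4G37930), the mitochondrial serine hydroxymethyltransferase of photorespiration, with 2, 1 and 4 retained reads and a mean of 0.00762%. Both introns are shown, in the same form, as those with the lowest mean levels among the 2176.
CSD2 intron 3, chr2:12015422-12015513, plus strand: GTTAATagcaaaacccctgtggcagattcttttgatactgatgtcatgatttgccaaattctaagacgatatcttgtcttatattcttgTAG
SHM1 intron 8, chr4:17833204-17833281, minus strand: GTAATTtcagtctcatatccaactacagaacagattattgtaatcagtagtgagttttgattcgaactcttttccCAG
Introns 2 and 4 of GS2, the plastid glutamine synthetase that recaptures ammonia from photorespiration (0.00958% and 0.0112%), and intron 4 of TGG2, a myrosinase that cleaves glucosinolates (0.0139%), completed the 5 lowest. For these 5 the order is not resolved, since each had a library with 1 retained read.

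Over all 2176 introns the median level was 0.303%, 0.218% and 0.307% in replicates 1, 2 and 3 (0.276% ± 0.0504, SD, n = 3), against 2.64%, 2.01% and 2.55% in the comparison introns. These levels chose the introns and are described without a test. Summed over the efficiently spliced introns, 53443, 27991 and 81215 reads were retained among 12476306, 11209136 and 22255664 junction reads. The mean level of an intron had quartiles of 0.158% and 0.523%, and 277 introns (12.7%) were under 0.1%, the level that a single retained read gives at 1000 reads. In 398 introns (18.3%) some library had 1 retained read, and 514 (23.6%) had at least 10 in each library. Among the comparison introns 1247 (94.7%) had at least 10 in each. Introns just inside the limit were intron 3 of the adenylate kinase AMK2 (0.997%), intron 3 of the ATP sulfurylase APS1 (0.998%) and intron 14 of the proton pump HA3 (0.999%). Just outside it were intron 10 of PTAC4, a plastid protein, and intron 4 of the Calvin cycle enzyme SBPASE (1.001% each), then intron 2 of FRO1, a respiratory complex I subunit (1.002%).

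**Figure D1:**
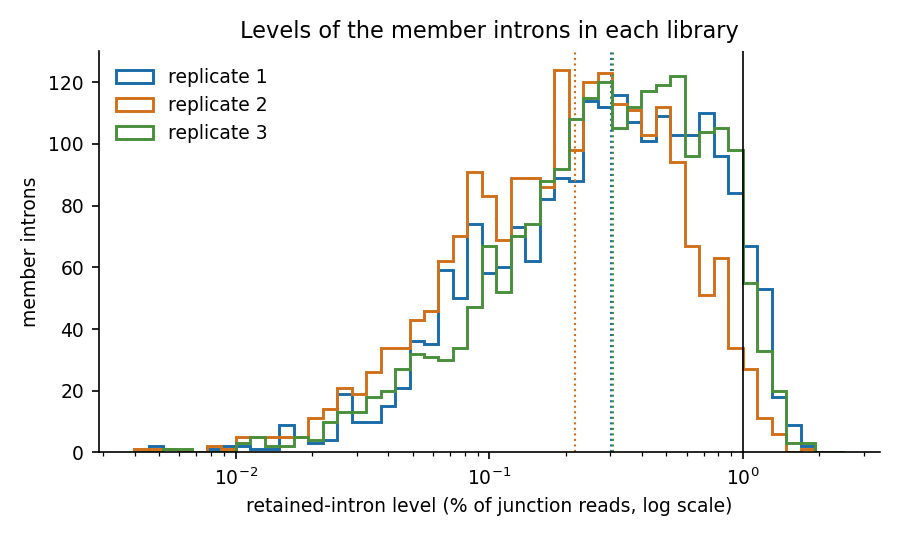
Number of efficiently spliced introns (vertical axis) by retained level in percent of junction reads (horizontal log axis), as an outline for each of the 3 libraries; dotted lines mark the medians and the solid line marks 1%. The outline of replicate 2 lies to the left, with a median of 0.218%, while those of replicates 1 and 3 lie close together at 0.303% and 0.307%.

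The plot of levels by library shows a shift of replicate 2 over most of the range. Replicate 2 was the lowest library for 1128 of the 2176 introns and the highest for 391, and replicate 1 was the highest for 977. The order of introns was shared in part between libraries, with Spearman's rho of 0.604 between replicates 1 and 2, 0.703 between 1 and 3, and 0.717 between 2 and 3 (n = 2176 introns, which share libraries and genes).

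Levels differed between the libraries by more than read-counting error in 327 efficiently spliced introns (15.0%), by a chi-square homogeneity test adjusted by Benjamini-Hochberg over all nuclear events at 0.05, of which 10.1% were called. The share called was 48.8% in the comparison introns. The test sees less where retained reads are few, and it is less reliable where expected counts are under 5. An expected count of at least 5 was met by 1374 of the efficiently spliced introns and by 32751 nuclear events. With the test limited to those, 356 (25.9%) of the introns and 20.4% of the events were called. Of the introns with at least 10 in each library, 177 of 514 (34.4%) efficiently spliced introns and 595 of 1247 (47.7%) comparison introns were called. Replicate 2 was the lowest library for 252 of the 327, and replicate 1 was the highest for 215. Without replicate 1 the number called was 159, without replicate 2 it was 156, and without replicate 3 it was 229. When each library was allowed its own factor, set from the comparison introns, 266 (12.2%) were called, against 9.71% of all nuclear events.

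Differences between libraries were called in 42 of 60 Calvin cycle introns, 24 of 43 introns of photosystem and antenna proteins and 55 of 126 photorespiration introns, and in 22 of 241 ribosomal protein introns, beside 15.0% of all 2176. Roles were taken from lists of gene IDs or of words in the RefSeq product name. A gene in 2 lists counts in both. The ratio of the level in replicate 1 to that in replicate 2 was taken where each library had at least 10 retained reads. For photorespiration, the recycling of the phosphoglycolate that Rubisco makes with oxygen, the median ratio was 2.45 (quartiles 1.54 to 3.29, 54 introns of 14 genes), and 51 of the 54 were above 1. For the Calvin cycle, which fixes carbon dioxide, it was 2.39 (1.74 to 4.10, 44 introns of 17 genes), with 43 of 44 above 1. For photosystem and antenna proteins it was 2.03 (27 introns of 18 genes), with 25 of 27 above 1. For ribosomal proteins it was 0.947 (quartiles 0.716 to 1.35, 58 introns of 49 genes), with 28 of 58 above 1, and for RNA-binding and splicing proteins 0.895 (15 introns, 7 above 1). That last list was made by words in the product name and also holds introns of RPS10B and AT4G25740 (ratios 0.620 and 0.621). At least RPS10B is a ribosomal protein gene. Over all 514 such introns the median ratio was 1.44, with 365 above 1. In the photorespiration list, introns 2, 5 and 7 had nearly equal ratios in PGLP1 (1.12, 1.55 and 1.88) and AT5G36790 (1.13, 1.55 and 1.97). Those introns may count the same reads, so they may not be separate values.

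**Figure D2:**
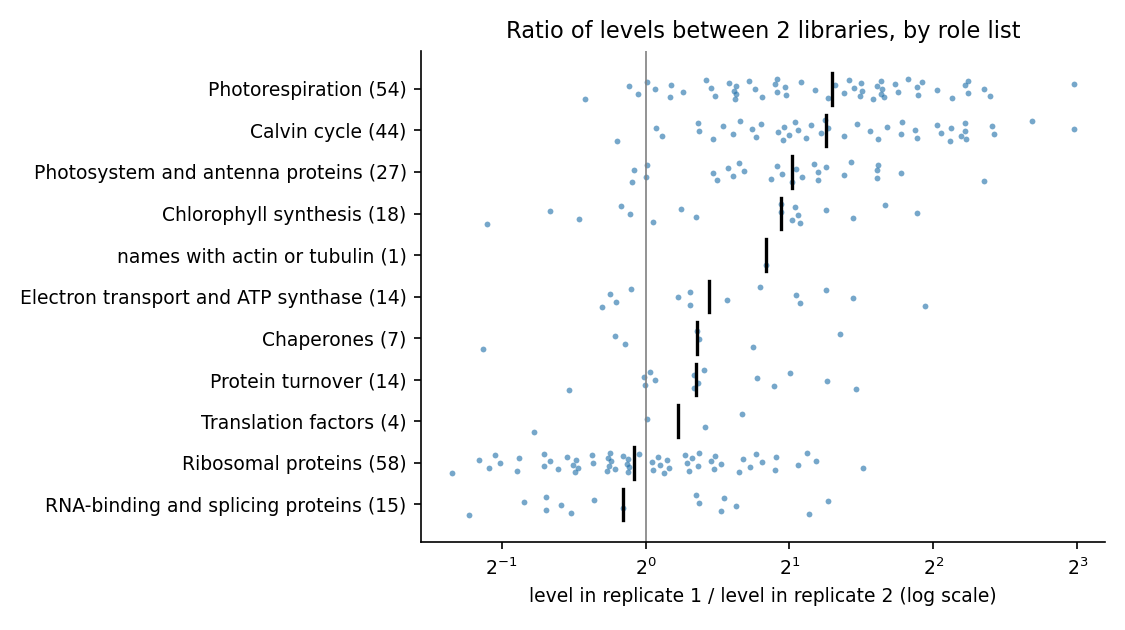
Ratio of the retained level in replicate 1 to that in replicate 2 (horizontal log axis) for efficiently spliced introns with at least 10 retained reads in each library, by role list (vertical axis, number of introns in brackets); each point is an intron and the black bar is the median. The medians of the photorespiration and Calvin cycle lists are 2.45 and 2.39, those of the ribosomal and RNA-binding lists 0.947 and 0.895.

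The ratio was also taken in introns that the rule left out, over the same 3 libraries. In the comparison introns its median was 1.76 for photorespiration (20 introns, 20 above 1), 1.58 for photosystem and antenna proteins (24 introns, 21 above 1), 1.32 for the Calvin cycle (6 introns, 4 above 1) and 1.16 for ribosomal proteins (56 introns, 39 above 1), beside 1.27 for all 1247. The Calvin cycle value there was near that of all introns, and most ribosomal introns were above 1, unlike among the efficiently spliced ones. In deep first introns, which the rule never took, it was 1.75 for photosystem and antenna proteins (40 of 40 above 1), 1.69 for the Calvin cycle (10 of 11), 1.46 for photorespiration (8 of 8) and 1.13 for ribosomal proteins (53 of 78), beside 1.28 for all 728. For electron transport and ATP synthase it was 1.36 in efficiently spliced introns (10 of 14 above 1), 1.62 in comparison introns (16 of 17) and 0.976 in first introns (5 of 10). For chlorophyll synthesis it was 1.92 (13 of 18), 1.33 (14 of 19) and 1.45 (7 of 12) in the same order. Among the efficiently spliced introns, introns 4 to 6 of CH1 (2.72, 2.38 and 2.11) count in both of these lists. A word in the product name put them in the electron transport list. The differences between lists were not tested. Photosynthetic introns also had more retained reads, which raises the number called: 36 of 44 Calvin cycle introns were called and 7 of 58 ribosomal ones, with median retained reads of 115 and 31.8. Introns with a mean of under 50 retained reads are more alike in the number of reads. Among them the ratio was 1.82 for the Calvin cycle (10 introns, 4 called) and 1.55 for photorespiration (25 introns, 10 called). It was 1.17 for electron transport and ATP synthase (9 introns, 0 called) and 0.929 for chlorophyll synthesis (9 introns, 1 called). For ribosomal proteins it was 0.919 (53 introns, 5 called), beside 1.18 for all 359 (54 called). Photosystem and antenna proteins had only 3 introns under that limit (ratio 2.07, 0 called), too few for this comparison. For the junction reads themselves, the median ratio of replicate 1 to replicate 2 was 1.19 for the Calvin cycle, 1.13 for photorespiration and 1.44 for ribosomal proteins, against 1.11 for all 2176. The ribosomal list stood furthest from that value.

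By the named-gene rule 6 introns showed the greatest ratio of highest to lowest library. Intron 11 of GOX1, the glycolate oxidase of the peroxisome, was retained in 0.812%, 0.103% and 0.421% of junction reads in replicates 1, 2 and 3 (adjusted p = 1.15e-19, chi-square test of homogeneity over all nuclear events). Intron 7 of GAPB, a subunit of the Calvin cycle glyceraldehyde-3-phosphate dehydrogenase, had 0.414%, 0.0526% and 0.207%, and was also called. Both differed 7.86-fold between the highest and the lowest library, with 17 and 12 retained reads in replicate 2. Intron 2 of ESM1, which modifies glucosinolate breakdown, had 1.82%, 0.251% and 0.613%, and intron 3 of CA1, a chloroplast carbonic anhydrase, 0.192%, 0.0290% and 0.176%. Intron 4 of FBA1, a plastid fructose-bisphosphate aldolase, had 1.23%, 0.192% and 1.01%, and intron 13 of GGT1, the glutamate:glyoxylate aminotransferase of photorespiration, 0.683%, 0.147% and 0.801%. Replicate 2 was the lowest for all 6, and replicate 1 the highest for the 5 other than GGT1. The introns of GAPB and FBA1 are shown as examples of this difference between libraries.
GAPB intron 7, chr1:16128845-16128946, plus strand: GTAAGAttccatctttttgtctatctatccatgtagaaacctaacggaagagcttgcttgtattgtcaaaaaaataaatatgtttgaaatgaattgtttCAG
FBA1 intron 4, chr2:9129047-9129132, minus strand: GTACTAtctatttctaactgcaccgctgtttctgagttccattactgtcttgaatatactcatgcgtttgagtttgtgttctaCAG

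The 2 most deeply read of all these introns lie in genes of the Rubisco small subunit. Intron 2 of RBCS1A had 0.479%, 0.274% and 0.340% retained among 395750, 328755 and 725239 junction reads, and intron 2 of RBCS3B had 0.346%, 0.146% and 0.215%. The sequence around each spliced junction matches other small subunit genes at 95% identity or more, so reads may be split between copies and these values are uncertain. In RBCS3B a shifted donor also took 99.7% of the reads. Introns of antenna genes were also among the 8 with the most reads. Intron 3 of LHCB5, a minor antenna protein of photosystem II, had 0.341%, 0.143% and 0.229%, and its intron 2 had 0.705%, 0.366% and 0.591%. Intron 3 of LHCA4, an antenna protein of photosystem I, had 1.27%, 0.555% and 0.850%. Introns 3 to 5 of RCA made up the rest, and replicate 2 was the lowest for all 8.

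Role lists differed in how much of them was spliced this completely. Of the deep later introns of Calvin cycle genes 60 of 66 (90.9%) were under the limit, of photorespiration genes 126 of 146 (86.3%), of translation factors 54 of 65 (83.1%) and of ribosomal protein genes 241 of 299 (80.6%), beside 62.3% of all deep later introns. The share was near 62.3% for photosystem and antenna proteins (43 of 67), RNA-binding and splicing proteins (43 of 66) and protein turnover (70 of 111). The rule itself set these counts. Level also went with depth, with Spearman's rho to mean junction reads of -0.229, -0.278 and -0.259 in replicates 1, 2 and 3 over all deep later introns. Median reads of the efficiently spliced introns were 23747.5, 10738.7, 4102.5 and 4692 in the 4 lists named first, beside 3121.5 for all 2176. Photosystem and antenna introns had 27118.3 with a share near that of all. Whether depth bears on these shares was not tested. The list of product names with actin or tubulin (17 of 34) also caught proteins named as interacting, such as PIF4 and CIPK1, and describes no cytoskeleton group. In all, 795 of the 2176 (36.5%) were in some list.

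Median mean levels ranged from 0.139% for chaperones (49 introns) to 0.608% for photosystem and antenna proteins (43 introns), beside 0.297% for all 2176. Genes of chloroplast chaperonins, which fold Rubisco and other proteins, had introns in the lower part and at the top of the chaperone list. The quartiles of that list were 0.0772% and 0.330%, and its lowest mean level was 0.0243%. Intron 6 of CPN60A had 0.0279%, 0.0200% and 0.0976% in replicates 1, 2 and 3, and intron 11 of CPN60B had 0.1001%, 0.0578% and 0.0813%. Intron 4 of CHL-CPN10 had a mean of 0.969%, the highest of the 49. Translation factors had a median of 0.189% (54 introns). Intron 2 of FBR12, an eIF5A gene, had 0.0101%, 0.0735% and 0.105%, and intron 2 of LOS1, elongation factor 2, had 0.0695%, 0.0280% and 0.0597%. Introns 2 of the elongation factor EF-1alpha genes AT1G07940 and AT1G07920 (0.0483% and 0.0521%) have near-identical copies and are uncertain. Each of these 4 translation factor values rests on 1 to 6 retained reads in replicates 1 and 2, and they overlap between genes.

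Ribosomal protein introns were the most numerous group, with 241 in 117 genes and a median of 0.254%. Intron 2 of AT3G60245 had 0.379%, 0.182% and 0.236%, intron 2 of AT1G67430 had 0.0604%, 0.0811% and 0.0704%, and intron 2 of AT3G62870 had 0.0174%, 0.0147% and 0.0542%. The last 2 were lower than the first in every library.

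Chlorophyll synthesis had 48 such introns (of 67), with a median of 0.407%, and 8 of the 48 differed between libraries. This and the counts below stand beside 15.0% called among all 2176 introns and 10.1% among all nuclear events, and were not tested. Intron 4 of CRD1, a subunit of the cyclase that closes the chlorophyll ring, had 1.13%, 0.552% and 0.955%, while intron 3 of GUN5, a magnesium chelatase subunit, had 0.263%, 0.0712% and 0.179%. CRD1 was higher than GUN5 in every library. Electron transport and ATP synthase genes had 58 of 75, with a median of 0.241%, and 6 of the 58 differed. In the related ferredoxin-NADP reductase genes, intron 6 had 0.367%, 0.178% and 0.516% in FNR1 and 1.09%, 0.285% and 0.726% in FNR2. Intron 2 had 0.302%, 0.174% and 0.188% in FNR1 and 0.225%, 0.152% and 0.299% in FNR2. FNR2 was higher in each library at intron 6, while at intron 2 the order of the genes changed between libraries. In protein turnover the median was 0.308%, and 10 of 70 introns differed. Intron 3 of the thylakoid protease gene VAR2 had 0.136%, 0.0457% and 0.0892%. It lay below the same-numbered intron of its partner VAR1, with 0.549%, 0.296% and 0.522%. In RNA-binding and splicing genes the median was 0.237%, and 3 of 43 introns differed. Intron 3 of CP29, which binds chloroplast transcripts, had 0.372%, 0.870% and 0.555%. CP29 was thus highest in replicate 2, as was intron 2 of the Rubisco small subunit gene RBCS2B (0.632%, 0.726% and 0.580%), whose value is uncertain because of its near-identical copies.

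Levels were higher toward the 3′ end of the transcript. The last intron of a transcript had a median level of 0.403%, 0.287% and 0.389% in replicates 1, 2 and 3 (0.359% ± 0.0630, SD, n = 3, 425 introns), and the next to last 0.321% ± 0.0697 (396 introns). Introns in the fifth place from the end had 0.240% ± 0.0695 (196 introns), and those in place 8 or further 0.193% ± 0.0384 (308 introns). The decline was not even, since place 7 (0.229% ± 0.0327, 104 introns) lay above place 6 (0.184% ± 0.0299, 142 introns) in each library. The gap between the ends of this series exceeded the SD between libraries, and the last intron was above place 8 or further within each library. Spearman's rho of level with place from the end was -0.186, -0.193 and -0.228 in the 3 libraries (n = 2174 introns with coordinates, which share genes and libraries), while rho with the intron number counted from the start was 0.0185, -0.0227 and 0.0495. The median number of junction reads was 3384 at the last intron and 2534 at place 8 or further.

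**Figure D3:**
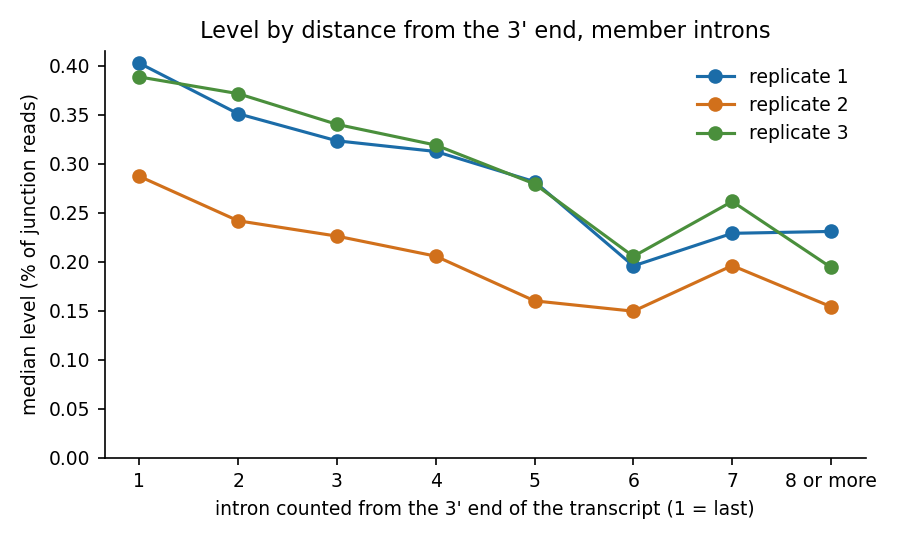
Median retained level of efficiently spliced introns in percent of junction reads (vertical axis) by place of the intron counted from the 3′ end of its transcript (horizontal axis, 1 is the last intron), with a line for each library. Each library declines from the last intron (0.403%, 0.287% and 0.389%) to place 6 (0.196%, 0.150% and 0.205%), and replicate 2 is lowest at every place. Place 7 lies above place 6 in each library (0.229%, 0.196% and 0.262%).

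The same trend was seen inside genes. In 194 genes with at least 4 of these introns, the rank correlation of level with intron number had a median of 0.357, and it was positive in 141 genes. It was positive in each library separately in 96 genes and negative in each in 28. Junction reads showed no such order, with a median correlation of -0.0202 with intron number. The limit of 1% could trim such a trend, so the deep later introns of any level were also used: in 337 genes with at least 4, the correlation was positive in 249.

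GLU1, the ferredoxin-dependent glutamate synthase that works beside GS2, held the most of these introns: 20 of its 21 deep later introns, at mean levels of 0.0329% to 0.406%. ATH13 held 13 of 14 (0.0547% to 0.834%), SHM1 12 of 12 (0.00762% to 0.594%), ABA1, the zeaxanthin epoxidase of abscisic acid synthesis, 12 of 13 (0.0379% to 0.554%) and GGT1 11 of 12 (0.0345% to 0.990%). In SHM1 the introns fell into a low stretch and a higher one. Introns 2 and 4 to 8 had mean levels of 0.0219%, 0.0611%, 0.0848%, 0.0388%, 0.0143% and 0.00762%. Introns 9 to 14 had 0.514%, 0.124%, 0.381%, 0.201%, 0.594% and 0.194%. Each of these exceeded each of the earlier ones in mean level and in replicates 1 and 3. In replicate 2 introns 10, 12 and 14 (0.0375%, 0.0670% and 0.0551%) lay below intron 5 (0.0760%). GGT1 had mean levels of 0.0345% at intron 4 and 0.923% and 0.990% at introns 11 and 12. Its introns 11 to 13 exceeded its earlier efficiently spliced introns in each library. In GLU1 and ATH13 the levels went up and down along the gene with no such step. Between genes, 309 had 1 such intron and 123 had 5 or more. The gene an intron lay in accounted for 25.7% of the variance of log level (1867 introns of 504 genes with at least 2), and for 40.1% among introns with at least 10 retained reads in each library (312 introns of 109 genes).

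**Figure D4:**
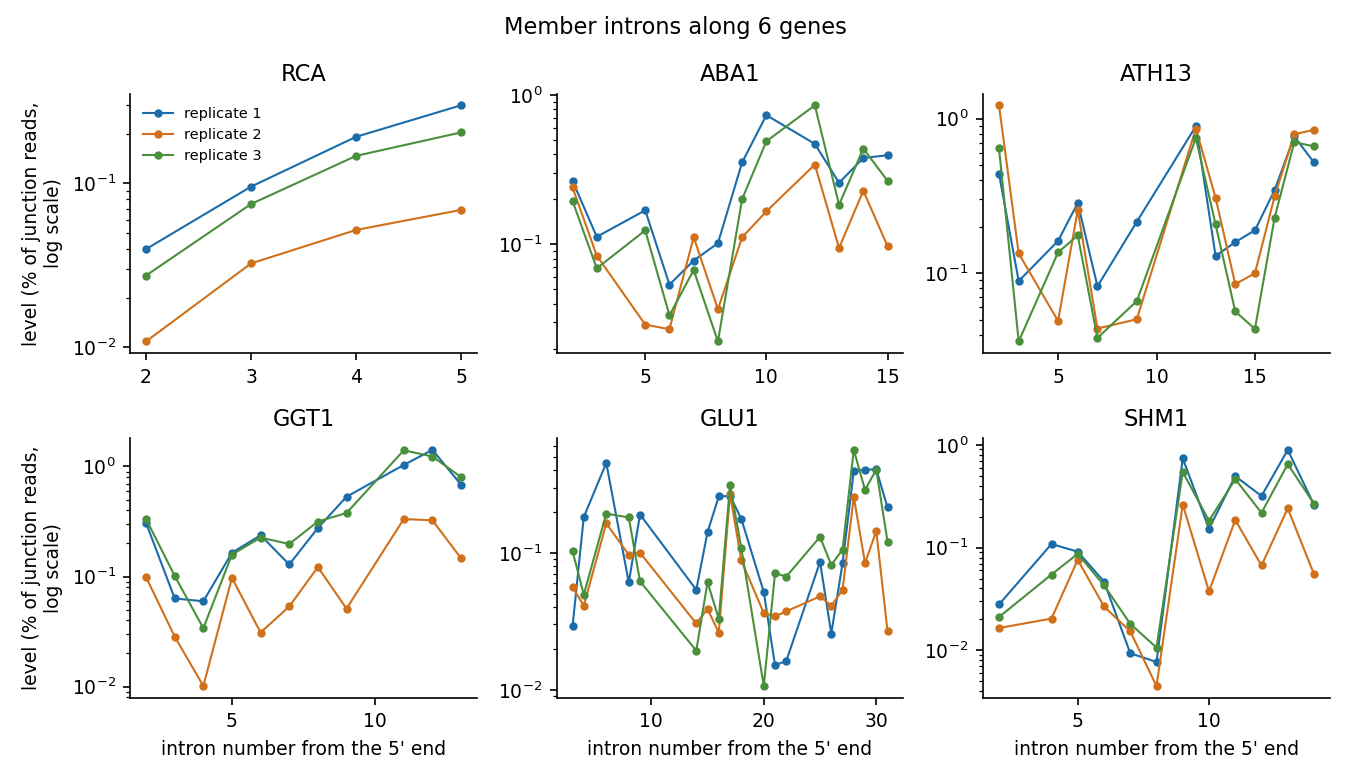
Retained level in percent of junction reads (vertical log axis, scaled for each gene) of the efficiently spliced introns of RCA and of the 5 genes with the most of them, by intron number from the 5′ end (horizontal axis), with a line for each library. In RCA each library rises at every step. Introns 11 to 13 of GGT1 lie above its earlier ones in each library, and introns 9 to 14 of SHM1 do so in replicates 1 and 3. GLU1 (20 introns) and ATH13 (13) go up and down.

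The efficiently spliced introns were short. Their median length was 93 nt (quartiles 85 to 115), against 106 nt (87 to 227) in the comparison introns and 217 nt in those at 10% or more. Of the efficiently spliced introns 53.1% were 80 to 100 nt long and 4.42% over 300 nt, against 36.1% and 17.6% of the comparison introns. Length said less within the efficiently spliced introns: the median level was 0.264% at over 80 to 90 nt (626 introns), 0.328% at up to 80 nt (302 introns) and 0.452% at over 300 nt (96 introns). The 3 longest were intron 2 of HA3 (1011 nt, 0.168%), intron 2 of AMK2 (1128 nt, 0.604%) and intron 2 of AT5G47890, a respiratory complex I subunit (1213 nt, 0.882%). The shortest, intron 3 of the ribosomal protein gene AT3G53740, is annotated with 27 nt, and whether the counted junction is that interval was not tested. Next were intron 4 of RPS1, a plastid ribosomal protein (62 nt, 0.0849%), and intron 14 of AIM1, an enzyme of fatty acid beta-oxidation (64 nt, 0.819%).

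**Figure D5:**
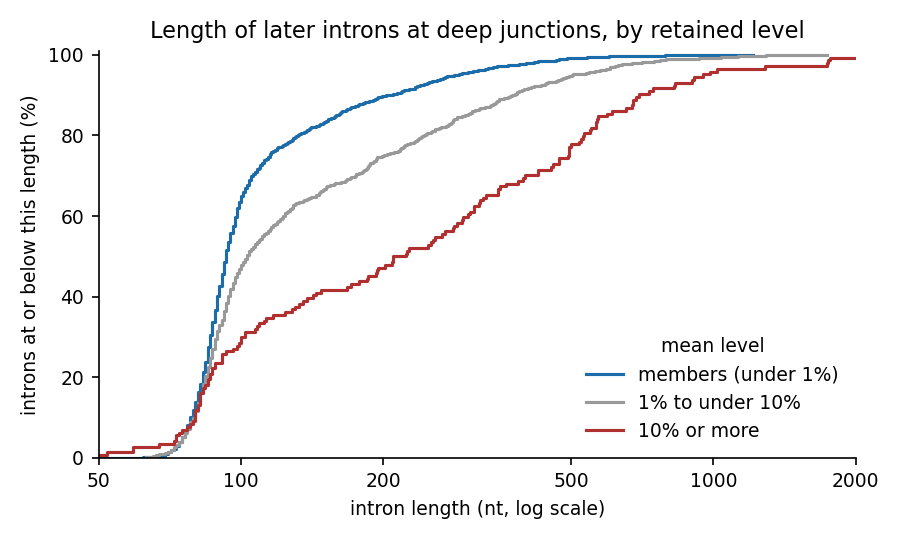
Share of introns at or below a given length (vertical axis, percent) by length in nt (horizontal log axis, shown from 50 to 2000 nt), for efficiently spliced introns and for comparison introns at 1% to under 10% and at 10% or more. The curve of the efficiently spliced introns (median 93 nt) is the steepest, and that of introns at 10% or more (median 217 nt) lies furthest to the right.

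Splice sites differed little in score and more in rare forms. The median donor score was 7.52 against 7.27 in the comparison introns and 6.98 in those at 10% or more, and the median acceptor score 7.07 against 6.93 and 6.54. The quartiles of the donor score, 5.88 to 8.84 in efficiently spliced introns and 5.54 to 8.52 in comparison introns, overlapped almost whole. The base A at the third intron position stood in 70.3% of efficiently spliced introns and 65.7% of comparison introns, and the A that opens an AAG acceptor in 4.14% and 6.87%. The share of G and C was alike, at a median of 32.9% and 32.7%. Counted over introns, which are not replicates, these differences carry no test.

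Introns that open with GC in place of GT were among the efficiently spliced ones in 15 cases (0.690%), against 22 (1.68%) in the comparison introns, and no AT-AC intron was among either. In 8 of the 15 the donor read GCAAGT. Intron 6 of FBA2 and intron 5 of FBA1, in a pair of related plastid aldolase genes, both had this donor and are shown with its 6 bases in capitals.
FBA2 intron 6, chr4:18163993-18164130, minus strand: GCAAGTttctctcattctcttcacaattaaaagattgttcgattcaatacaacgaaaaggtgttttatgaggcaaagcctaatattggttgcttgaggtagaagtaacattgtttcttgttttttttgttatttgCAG
FBA1 intron 5, chr2:9128695-9128776, minus strand: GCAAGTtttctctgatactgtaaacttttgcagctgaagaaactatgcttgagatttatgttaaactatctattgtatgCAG
The FBA2 intron was retained in 0.526%, 0.126% and 0.381% of junction reads in replicates 1, 2 and 3, and the FBA1 intron in 1.397%, 0.298% and 0.878%. The FBA1 intron was higher than the FBA2 intron in each library, and both were lowest in replicate 2. Further GC introns were intron 5 of TROL, a thylakoid protein that tethers ferredoxin-NADP reductase (0.685%), intron 4 of CLA1, a plastid isoprenoid synthesis enzyme (0.312%), and intron 4 of PGY1, a ribosomal protein gene (0.345%). The 15 GC introns had a median level of 0.344%, from 0.105% to 0.953%.

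Efficiently spliced introns lay in coding regions in 99.4% of cases, against 97.7% of comparison introns. RefSeq annotated 25 of them (1.15%) as retained in another transcript of the gene, against 115 comparison introns (8.78%) and 36.8% of those at 10% or more. If retained, 88.8% would bring an in-frame stop codon, against 91.6% in the comparison introns, and 51 (2.36%) would leave the frame open, against 25 (1.95%). Introns between whole codons (phase 0) made up 62.4% and 57.1%. The last intron of its transcript accounted for 19.5% of the efficiently spliced introns and 31.6% of the comparison introns. The transcripts had a median of 8 and 6 introns. An annotated small RNA gene lay inside 4 efficiently spliced introns. Intron 3 of AT1G67430 and intron 3 of AT1G27400, in related ribosomal protein genes, and intron 3 of the small GTPase gene ARF1A1C each hold a snoRNA gene, and intron 4 of APE2, the triose phosphate translocator, holds a tRNA gene. Their mean levels were 0.286%, 0.567%, 0.110% and 0.156%, all within the range of the rest.

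Of the 813 genes, 404 also held a comparison intron, and 52 held one at 10% or more. The widest gaps lay between an intron almost never read as retained and an annotated intron almost never read as removed. In ROC4, a chloroplast cyclophilin, intron 6 was retained in 0.0452%, 0.00952% and 0.0142% of reads, and intron 2 in 100% in each library. In EIF4A1, an RNA helicase of translation initiation, intron 3 had 0.128%, 0.0391% and 0.0650%, and intron 5, annotated with 40 nt, a mean of 99.98%. Donor and acceptor sites of these pairs are shown with the intron bases in capitals (6 at the donor, 3 at the acceptor), flanked by 3 exon bases at the donor and by 1 exon base and earlier intron bases at the acceptor, all in lower case.
ROC4 intron 6 donor, chr3:22974552-22974642, plus strand: aatGTAAGT
ROC4 intron 6 acceptor: atatggtctcaCAGg
ROC4 intron 2 donor, chr3:22973296-22973658, plus strand: tctGTAAGC
ROC4 intron 2 acceptor: ctgcaaaactaAAGa
EIF4A1 intron 3 donor, chr3:4593783-4593872, minus strand: atgGTATGT
EIF4A1 intron 3 acceptor: ctgttttttctTAGg
EIF4A1 intron 5 donor, chr3:4592665-4592704, minus strand: gctGTTTGA
EIF4A1 intron 5 acceptor: tggttgtcgaaGAGc
The donor score was 7.59 for intron 6 of ROC4 and 3.59 for its intron 2, and 7.79 for intron 3 of EIF4A1 and 0.977 for its intron 5. The acceptor scores were 7.54 and 1.13 in ROC4, and 6.45 and -0.678 in EIF4A1. In the ribosomal protein gene AT4G14320 intron 2 stood at 0.152% and intron 4 at 99.9%, with donor scores of 7.84 and 0.951. In ALDH11A3, an aldehyde dehydrogenase, intron 4 stood at 0.109% and intron 10 at 98.9%, with donor scores of 7.62 and 5.08 and with the acceptor scores the other way round, 4.95 and 8.75. The next gaps were those of ASP5, an aspartate aminotransferase (0.138% at intron 11 and 98.8% at intron 12), CA1 (0.0556% at intron 2 and 95.4% at intron 9), AT5G35170 (0.178% and 62.3%) and the RNA helicase gene UAP56a (0.0980% and 62.0%).

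First introns of the same genes were set beside these introns. In 600 genes with a deep first intron, its level exceeded the median of the gene's efficiently spliced introns in 373 (62.2%), with medians of 0.338% for the efficiently spliced introns and 0.498% for the first introns. The efficiently spliced values were limited to under 1% and the first introns were not. Of the 600 first introns, 408 were also under 1% and 22 were at 10% or more.

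Shifted splice sites were listed at some of these junctions too. At 530 of the 2176 junctions (24.4%) a shifted donor or acceptor was also listed, against 514 (39.0%) of the comparison junctions. The difference was seen at each depth: 17.1% against 34.0% at a mean of 1000 to under 2000 reads, 20.9% against 37.0% at 2000 to under 5000, and 36.5% against 59.3% at 5000 or more. Most shifted forms at efficiently spliced junctions were rare, with a median of 0.111% for the leading one, and 46 (2.11%) reached 1%, against 137 (10.4%) at the comparison junctions. In 11 junctions, however, the shifted site took most of the reads. An acceptor other than the numbered one had 99.9% of reads at intron 4 of GSR2, a cytosolic glutamine synthetase, whose intron was retained in 0.0943%, and 99.8% at intron 5 of AKR2, with 0.125% retained. For these junctions the intron removed in the leaf is not the one numbered, and the level counts retention beside the shifted form.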

How the data were processed

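RNA of 3 libraries was sequenced; per the submitters' processing notes CASAVA 1.8.2 and GSNAP were used with the build TAIR10. The authors deposited 1 table of raw read counts, with alternative and other reads for each of 62909 events in each library; the sources used here name no event caller and define neither the class codes nor how reads inside introns were counted. Class IR was read as intron retention. The members and lists were chosen with earlier results of these data known. No library was normalized; a level is 100 times alternative reads over both counts, with n = 3 libraries. The chi-square test (scipy 1.17.1, python 3.11.15) sets libraries against counting error alone, takes reads as independent and covers no other error; intervals likewise.

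Introns were numbered through the RefSeq transcript whose introns best abut the listed shifted sites (99.5% of 13349 did, against 95.2% for the first transcript). The position of 96.0% of the efficiently spliced introns was the same in each transcript or backed by such a site, and 2 had no coordinates. TAIR10.1 nuclear chromosomes have the lengths of TAIR10. Junctions of 50 bases on either side were matched with BLASTN 2.17.0 (95% identity, 90% cover); 75 introns (3.45%) had a copy in another gene. Leaf mesophyll markers were abundant (RCA up to 198133 reads a junction). Of the root, flower and seed markers, WER, PHT1;1, AP3, CRA1 and OLEO1 had no listed event. The root marker SCR had 1 event with 137 reads and the flower marker AG 1 with 15.7. Guard cell markers MYB60, FAMA and KAT1 had 3, 5 and 5 events, with up to 281 reads. The vascular markers SUC2 and XCP1 had 3 events with up to 2771 reads and 1 with 144.

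Named introns followed a fixed rule: the most reads, the lowest levels, the nearest to the limit, the most per gene, up to 4 for each role list, the greatest library ratio and same-gene gap, extreme lengths, and GC introns. Introns with a small RNA gene and RCA introns 1, 2 and 6 were added after values were seen. So were introns of RPS10B, AT4G25740, CHL-CPN10 and CH1, introns 2 and 6 of FNR1 and intron 2 of FNR2. Junctions led by a shifted site and the comparison of ratios in other introns were also added then. The alternatives tried were other read and level limits, minimum retained reads, leaving out each library, a factor for each library, other transcripts and other comparison introns.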

Additional observations from a re-analysis of the deposited data

How the results depend on the processing

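Of 60 alternatives, 44 were counted as unchanged. These were counts within 1.5 times, the median level within its SD between libraries, and differences and shares within their interval. Another 15 moved further, and 1 left its interval with the sign turned. Some small differences also turned sign inside their interval. The GC difference was -0.196 points from 500 reads and -0.143 with 1 value for each gene. From 2000 reads the acceptor score difference was -0.0126 and that of the reading-frame share -0.105 points. A minimum of 500 or 2000 reads gave 3639 or 1189 introns, and at least 10 retained reads in each library gave 514; leaving out each library gave 2209 to 2333. The median level became 0.600% with at least 10 retained reads and 0.376% from 500 reads; leaving out each library gave 0.276% to 0.324%. Introns that differed between libraries numbered 216 at an adjusted p of 0.01, and 156 to 229 when a library was left out. Against comparison introns at 10% or more, the median length difference of -13 nt became -124 nt, the donor score difference 0.54, the acceptor score difference 0.53, and the GC difference of 0.204 points turned negative, to -0.407; with 1 value for each gene the length difference was -34 nt. The share of junctions with a shifted site became 2.11% for sites at 1% or more, 19.7% from 500 reads and 29.5% from 2000 reads, and 23.0% to 24.3% when a library was left out. The cause was not tested beyond what each limit itself sets. Depth limits the lowest levels: 3 reads at 1000 are 0.300%. No paired analysis was possible because the 3 libraries form 1 group.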
